A study of Mus musculus with 20 samples.

Results

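The comparison described here sets the livers of mice that had gone through hemorrhagic shock with severe trauma and then 1 h of resuscitation against the livers of mice given only minor trauma. It rests on 7 of the 20 arrays of the study, taken by their titles: 4 arrays of the resuscitated group, labelled HS/T+1.0R, and 3 of the minor trauma group, labelled MT. The resuscitated mice had 1.5 h of shock before the 1 h of resuscitation. The other groups were control mice that were not manipulated (n = 5), mice killed at the end of 1.5 h of shock and trauma (n = 4) and mice with 4.5 h of resuscitation (n = 4). All were male C57BL/6 mice of 8 to 12 weeks, the labels name no transgene or drug, and per the series text the groups were anesthetized and operated on so as to vary how long and how severe the injury was. What the minor trauma consisted of, when those mice were sampled, and what fluid was given was not found in the labels. The 2 groups differ in tissue injury, blood loss and resuscitation at once, and possibly in the time of sampling, and the parts that these play cannot be told apart in this contrast. Nothing in the labels says that each array is a separate mouse, so the p-values measure the spread between these samples.

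As background, blood loss cuts the oxygen supply of the liver, and resuscitation restores flow to tissue that has been short of it. Immediate early genes are transcription factors and feedback phosphatases that are transcribed within minutes of a stimulus without new protein synthesis. NF-kB is a transcription factor held in the cytoplasm by inhibitor proteins. When these are degraded it switches on chemokines, cytokines, adhesion molecules and, as a brake, its own inhibitors. Chemokines draw leukocytes out of the blood, and neutrophils gather in the sinusoids of the injured liver.

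Gene levels are log2 signals from Affymetrix arrays made comparable by quantile normalization, so 1 unit is a factor of 2, and levels of different genes are not compared with each other. A gene was called when limma's adjusted p was at most 0.05. For genes no brighter than the middle of the array throughout the lower group, the fold is given as "at least". Before normalization the median signal was 19.2 to 21.9 on the minor trauma arrays and 14.3 to 21.6 on the 1 h arrays. The log2 ratio of 3' to 5' signal for Gapdh, a sign of RNA integrity, was -0.41 ± 0.09 (SD, n = 3) and -0.37 ± 0.12 (SD, n = 4), and for beta-actin 0.72 ± 0.06 and 0.89 ± 0.10. Minor trauma array 3 stood apart. Its best correlation with any other array was 0.95, its weight in a fit with array weights was 0.18, and the weights of the other 6 arrays ran from 0.83 to 2.18. The total counts and many of the list counts are therefore also given without it. Control array 5 matched minor trauma array 2 best (r = 0.98), and whether its label is right cannot be told from the files. It is part of every control mean given here. The hepatocyte marker genes summed to 81500 to 81900 signal units on the minor trauma arrays and 78400 to 82900 on the 1 h arrays, with all 12 above the array median on every array of both groups, as the liver label asks.

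Of 12832 genes tested, 1560 (12.2%) differed between 1 h of resuscitation and minor trauma. Higher levels were found for 612 genes (4.77%) and lower levels for 948 (7.39%). The higher calls were larger: among the 499 genes (3.89%) called with at least a 2-fold change, 314 were higher and 185 lower. The 4 resuscitated arrays did not overlap the 3 minor trauma arrays for 1444 of the called genes, beside 2724 (21.2%) of all genes tested. Without minor trauma array 3 the count was 1035, with 467 higher and 568 lower, and 855 of these also passed, with the same sign, in the fit of all arrays. The split depended on the scaling, since 39.2% of calls were higher after quantile normalization, 25.7% after median centring and 28.4% of 661 calls with no normalization.

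**Figure D1:**
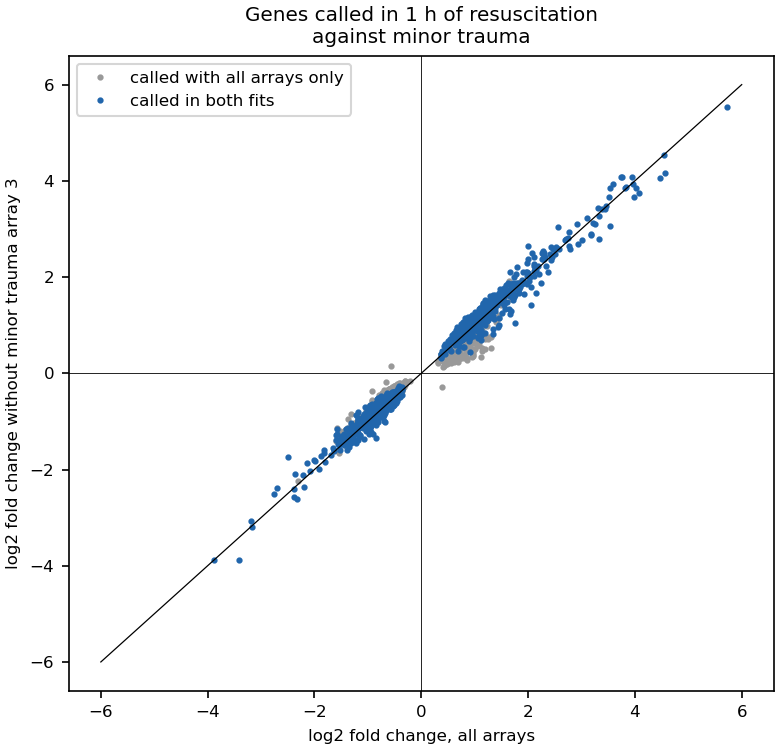
Log2 fold change of 1 h of resuscitation over minor trauma for the 1560 called genes, with all 20 arrays in the fit (horizontal) and without minor trauma array 3 (vertical). Each point is a gene, blue points are the 855 genes called in both fits, grey points the rest, and the line marks equal values. The largest changes lie near the line, and the grey points lie mostly at small changes. The sign turned for 2 genes.

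The 15 genes with the largest increases were 11.6-fold to 52.9-fold higher, and all 15 calls held when each of the 20 arrays was left out in turn. Cxcl2, a chemokine that attracts neutrophils, led them. Its log2 level was 5.78, 4.91 and 4.82 on the minor trauma arrays and 10.64, 11.15, 11.13 and 10.66 on the 1 h arrays, a difference of 5.73 ± 0.48 (SE) or 52.9-fold (adjusted p = 1.64e-07). The groups lay far apart, and the control level was lower still at 3.98 ± 0.56 (SD, n = 5). Of the 8 neutrophil-attracting chemokines and receptors tested, 3 were called higher and none lower, with a median log2 change of 0.69 beside -0.05 for all genes. Cxcl3, a close relative of Cxcl2, was 3.25, 3.24 and 3.58 after minor trauma and 5.31, 5.39, 5.56 and 5.62 at 1 h, a rise of at least 1.82-fold. Without minor trauma array 3 the count for this list was 2 of 8, and it was 2 with no normalization.

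Among the 20 other chemokines and receptors tested, 9 were higher and 1 was lower, with a median log2 change of 0.73. Ccl2, which attracts monocytes, was 5.64, 4.37 and 4.51 after minor trauma and 8.70, 9.53, 9.19 and 8.03 at 1 h, 16.2-fold higher (log2 4.02 ± 0.49 (SE), adjusted p = 1.57e-05). The lowest 1 h array lay well above the highest minor trauma array. Ccl3 and Ccl4, chemokines released by activated macrophages, were 22.2-fold and 10-fold higher. For Ccl3 the minor trauma levels of 5.06, 3.21 and 2.93 were themselves spread, and without the first of these arrays its log2 change was 5.12 against 4.47 with all. Cxcl10, a ligand of Cxcr3, a chemokine receptor found on T cells, rose from 6.70, 5.85 and 5.47 to 8.79, 9.73, 9.99 and 8.21, 9.03-fold. Ccrl2, an atypical receptor that binds chemerin, was 5.71-fold higher. The gene that went the other way was Cxcl13, which guides B cells: 10.01, 9.58 and 9.67 after minor trauma and 5.97, 7.14, 6.67 and 6.59 at 1 h, 8.95-fold lower (log2 -3.16 ± 0.56 (SE), adjusted p = 9.88e-04). The control arrays were 5.88, 5.90, 6.63, 7.15 and 9.25, of which array 5 lay near minor trauma and the others near the 1 h arrays.

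Of 20 genes tested in the list of IL-1, TNF and colony-stimulating factors, 8 were higher and none lower. This list also holds receptors, caspases and other cytokines. The share was 40% beside 4.77% over all genes. Il1b, which encodes interleukin-1 beta, was 5.58, 5.72 and 5.77 after minor trauma and 9.36, 9.49, 9.33 and 9.87 at 1 h, 14.2-fold higher (log2 3.82 ± 0.44 (SE), adjusted p = 8.23e-06). Its 3 minor trauma arrays were nearly level with the control mean of 5.25 ± 0.35 (SD, n = 5). Tnf rose at least 3.46-fold, from 3.29, 3.22 and 3.0 to 6.45, 6.71, 6.26 and 6.15. Il10, an inhibitory cytokine, rose at least 5.26-fold, and Il1r2, a decoy receptor for interleukin-1, 3.24-fold. Csf3, the growth factor of neutrophils, rose at least 2.59-fold. Of 18 genes of IL-6 family signalling, which include receptors, kinases and feedback inhibitors, 4 were called, all higher. That share was 22.2% beside 4.77% over all genes. Osm and Lif, cytokines of this family, were not called. Il6 itself was 4.32, 4.03 and 3.22 after minor trauma and 8.58, 8.17, 6.90 and 8.09 at 1 h, at least 10-fold higher (log2 4.08 ± 0.51 (SE), adjusted p = 1.98e-05). Jak2, a kinase of the IL-6 receptor path, was 2.55-fold higher. The list of 27 acute phase proteins holds both proteins raised and proteins lowered in inflammation, such as Alb and Ttr. None was called higher and 2 were called lower, a share of 7.41% beside 7.39% over all genes. That pair was Orm2 and Apcs, whose calls ended when single arrays were left out, Apcs without minor trauma array 2 and Orm2 without 14 of the 20 arrays. The lower count was 4 without control array 4, 5 without control array 5 and 4 after median centring or with no normalization, and 1 gene was higher without minor trauma array 1 or 2 or 1 h array 1. For some members, picked after their values were seen, both groups had means above control. Means after minor trauma, at 1 h and in control were 12.787, 11.882 and 9.961 for Saa2 and 12.002, 11.398 and 10.34 for Serpina3n. Those of Alb were level, at 13.177, 13.213 and 13.211.

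Of 26 NF-kB subunits, inhibitors and targets tested, 18 were higher and none lower, a share of 69.2% beside 4.77% over all genes, with a median log2 change of 1.57. The count was 17 without minor trauma array 3. Tnfaip3 encodes A20, an enzyme that shuts NF-kB signalling down. Its level was 7.02, 6.34 and 6.59 after minor trauma and 10.11, 10.90, 11.09 and 10.38 at 1 h, 15.6-fold higher (log2 3.97 ± 0.39 (SE), adjusted p = 1.23e-06). The feedback regulator Nfkbiz was 7.65-fold higher. Of the 4 adhesion molecules in the list 3 rose. Icam1 went from 8.28, 7.34 and 8.17 to 10.09, 10.82, 10.71 and 9.94, and Sele, the endothelial E-selectin, from 3.94, 3.82 and 3.52 to 7.01, 7.28, 7.39 and 6.34, at least 5.28-fold. Selp, which encodes P-selectin, was 2.42-fold higher (adjusted p = 0.00288), and Vcam1 was not called (log2 0.69 ± 0.37 (SE), adjusted p = 0.244). Irf1, a transcription factor of both the NF-kB and the interferon response, was 7.79, 7.60 and 7.66 after minor trauma and 9.91, 10.16, 10.53 and 10.14 at 1 h, 5.68-fold higher (log2 2.50 ± 0.19 (SE), adjusted p = 4.85e-08). Cd14, the co-receptor for bacterial lipopolysaccharide, was 6.83-fold higher, and Ptgs2, which encodes cyclooxygenase-2, at least 1.53-fold.

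Promoters are shown for some of the genes that rose, chosen because they hold a match to a string given here. They are not a sample of the genes that rose. The sequences come from RefSeq on GRCm38.p6, read 5' to 3' on the gene's own strand, and end before the start site, and capitals mark matches on either strand to a form of the NF-kB site (GGG, any 3 bases, then TTCC) or to TGANTCA, the AP-1 site. In Cxcl2 (chr5:90903779-90903858, plus strand) and Cxcl3 (chr5:90786001-90786080, plus strand) the first run of capitals holds 2 overlapping matches, and the second run 1.
Cxcl2: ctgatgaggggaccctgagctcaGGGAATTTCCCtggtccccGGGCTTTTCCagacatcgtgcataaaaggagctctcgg
Cxcl3: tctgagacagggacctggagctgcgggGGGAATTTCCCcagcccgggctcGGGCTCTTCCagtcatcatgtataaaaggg
Cxcl10 (chr5:92348940-92349069, minus strand) has 2 NF-kB matches followed by an AP-1 match, and Il6 (chr5:30013024-30013103, plus strand) has an NF-kB match.
Cxcl10: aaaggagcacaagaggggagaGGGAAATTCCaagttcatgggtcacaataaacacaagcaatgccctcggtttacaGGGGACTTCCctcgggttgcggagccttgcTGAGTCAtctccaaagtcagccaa
Il6: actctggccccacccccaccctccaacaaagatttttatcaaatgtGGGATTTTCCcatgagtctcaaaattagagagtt
Tnfaip3 (chr10:19015411-19015560, minus strand) has an AP-1 match far from the start and an NF-kB match close to it, and Sele (chr1:164048124-164048203, plus strand) has an AP-1 match.
Tnfaip3: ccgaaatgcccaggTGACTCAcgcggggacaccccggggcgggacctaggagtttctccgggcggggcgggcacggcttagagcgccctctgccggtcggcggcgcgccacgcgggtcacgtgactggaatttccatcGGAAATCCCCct
Sele: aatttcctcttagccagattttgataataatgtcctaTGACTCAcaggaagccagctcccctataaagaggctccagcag
That NF-kB string was present in 6.16% of the 10352 promoters available for genes tested, in 9.02% of the 488 of genes called higher, in 9.68% of the 248 called higher by at least 2-fold and in 5.07% of the 769 called lower. TGANTCA was in 5.48%, 7.99%, 10.1% and 4.81% of the same sets. Most genes that rose thus have neither string in the window searched, from 250 bases before the start to 50 after it, and a match is a description of the letters only. For Nfkbiz, Irf1, Icam1 and Cd14 no match was found or no window was available. Matches also occurred in genes called lower, among them Cpt2, Fgf21 and Marco for the NF-kB string and Cyp3a13 and Orm2 for TGANTCA.

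**Figure D2:**
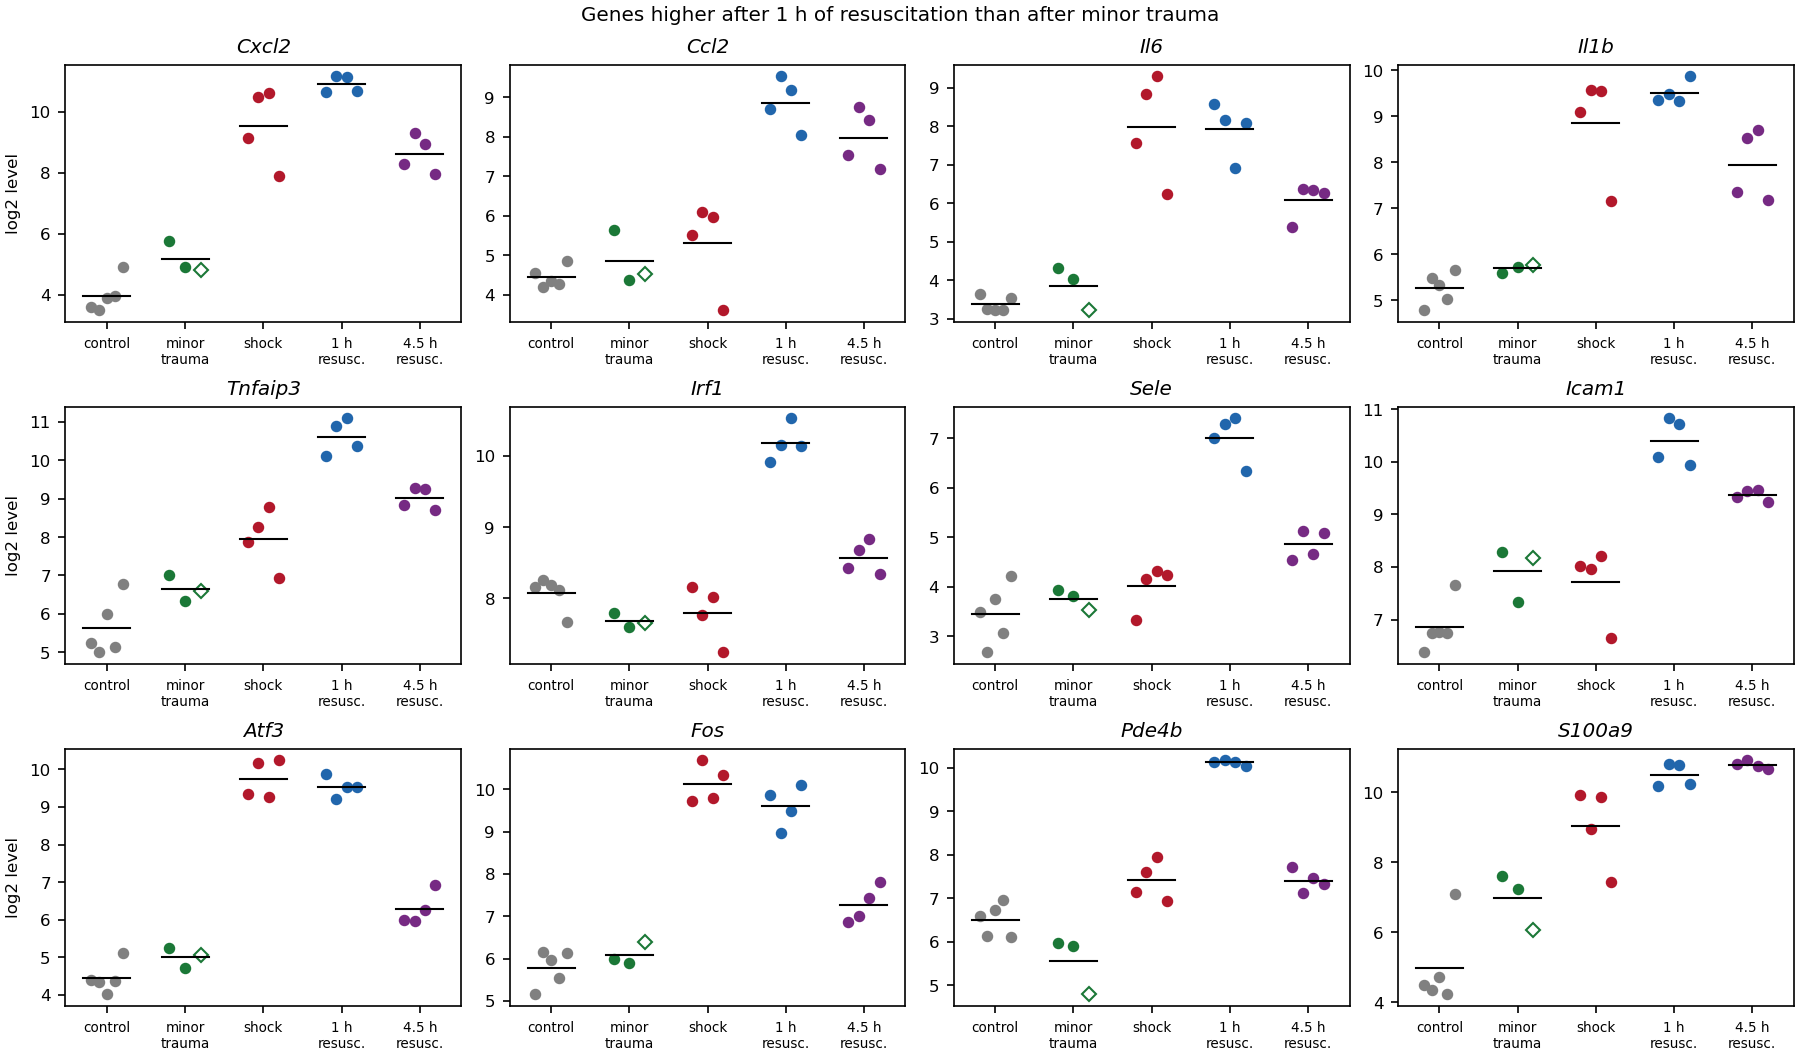
Log2 level (vertical) of 12 genes called higher at 1 h of resuscitation, on each array of the 5 groups (horizontal). Each point is an array, the open diamond is minor trauma array 3 and lines are group means. In all 12 panels the 4 arrays of 1 h lie above the 3 of minor trauma. Ccl2, Tnfaip3, Irf1, Sele, Icam1 and Pde4b are also higher at 1 h than at the end of shock.

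The immediate early genes were the list with the most calls among the pathway lists: 24 of 30 members were higher and none lower, a share of 80%, with a median log2 change of 1.61. The count was 23 without minor trauma array 3 and stayed between 21 and 24 whichever array was left out. Atf3, a stress-induced transcription factor of the CREB family, was 5.25, 4.71 and 5.05 after minor trauma and 9.87, 9.22, 9.54 and 9.53 at 1 h, 23.2-fold higher (log2 4.54 ± 0.28 (SE), adjusted p = 1.72e-09). Fos, a partner of Jun in AP-1, was 5.98, 5.90 and 6.40 against 9.86, 8.97, 9.49 and 10.11, 11.4-fold higher. Egr1, a zinc finger factor, was 13.5-fold higher. Its minor trauma levels of 6.52, 7.86 and 8.19 were the most spread of these genes. Btg2, a brake on cell division that p53 also induces, rose from 7.36, 7.89 and 7.71 to 11.22, 10.86, 11.10 and 11.23 with an adjusted p of 5.30e-09. Maff, a small Maf factor, was 10.4-fold higher and Ier3, an early gene linked to cell survival, 15.4-fold. Dusp1, a phosphatase that turns MAP kinases off, was 2.6-fold higher. Btg2 (chr1:134079276-134079355, minus strand) and Dusp1 (chr17:26508573-26508652, minus strand) are shown because their promoters hold TGACGTCA, the cAMP response element (CRE), in capitals.
Btg2: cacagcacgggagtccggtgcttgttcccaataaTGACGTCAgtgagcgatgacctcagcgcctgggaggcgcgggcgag
Dusp1: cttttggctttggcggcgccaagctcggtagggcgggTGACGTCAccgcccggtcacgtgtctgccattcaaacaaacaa
That string was in 2.98% of promoters of genes tested, 4.1% of those of genes called higher and 2.73% of those of genes called lower. Among genes higher by at least 2-fold it was in 5.24%, which is 13 of 248 promoters.

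A second question is how these genes stood at 1 h of resuscitation against the end of shock. Since minor trauma is the reference for both, the difference between the 1 h and the shock arrays is the test of that. The 1 h mice were also sampled later after the injury, so time and resuscitation cannot be told apart in it. Over all genes 160 (1.25%) passed this test, and among the 157 named genes called against minor trauma 27 did. The 157 were chosen by a contrast with the same 1 h arrays, so the 27 are not to be read against that share. The count of 27 was between 18 and 29 when arrays were left out singly. Ccl2 was at 5.52, 6.10, 5.96 and 3.60 on the shock arrays, so it was higher at 1 h by 3.57 ± 0.45 (SE) on the log2 scale (adjusted p = 1.07e-04). Irf1 was 8.16, 7.76, 8.02 and 7.24 at the end of shock, overlapping minor trauma, and higher at 1 h by 2.39 ± 0.18 (SE) (adjusted p = 1.68e-07). Sele and Icam1 showed the same order, with differences from shock of 2.99 ± 0.31 (SE) and 2.68 ± 0.30 (SE). Pde4b, a phosphodiesterase that breaks down cAMP, was 5.98, 5.91 and 4.79 after minor trauma, 7.15, 7.62, 7.94 and 6.94 at the end of shock and 10.13, 10.17, 10.14 and 10.05 at 1 h. The 4 arrays of 1 h were almost equal and 23.6-fold above minor trauma (adjusted p = 1.57e-09). Rnd1, whose protein loosens actin fibres, was 15.8-fold above minor trauma and higher than in shock by 3.50 ± 0.35 (SE). Hcar2, the receptor for hydroxybutyrate and niacin, rose from 4.89, 3.04 and 5.0 to 7.59, 8.17, 8.54 and 7.93 and was 3.80 ± 0.41 (SE) above shock. Without minor trauma array 2, its low array, the log2 rise of Hcar2 was 3.11. Acod1, which makes the antibacterial metabolite itaconate in macrophages, rose at least 6.53-fold and was 2.75 ± 0.43 (SE) above shock.

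For other genes the difference between 1 h and shock did not pass the test. Atf3 was 9.35, 10.16, 9.28 and 10.24 at the end of shock and differed by -0.21 ± 0.26 (SE) at 1 h (adjusted p = 0.868). Fos differed by -0.52 ± 0.27 (SE), Il6 by -0.05 ± 0.47 (SE), Egr1 by -0.40 ± 0.45 (SE) and Il1b by 0.66 ± 0.41 (SE). Missing the threshold does not show that the levels were equal. Dusp1 was called in the opposite sense: at 11.30, 11.99, 11.22 and 11.81 on the shock arrays and 10.57, 10.07, 10.22 and 10.63 at 1 h it was lower at 1 h by -1.21 ± 0.24 (SE) (adjusted p = 0.0115), while it was above minor trauma at both times.

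**Figure D3:**
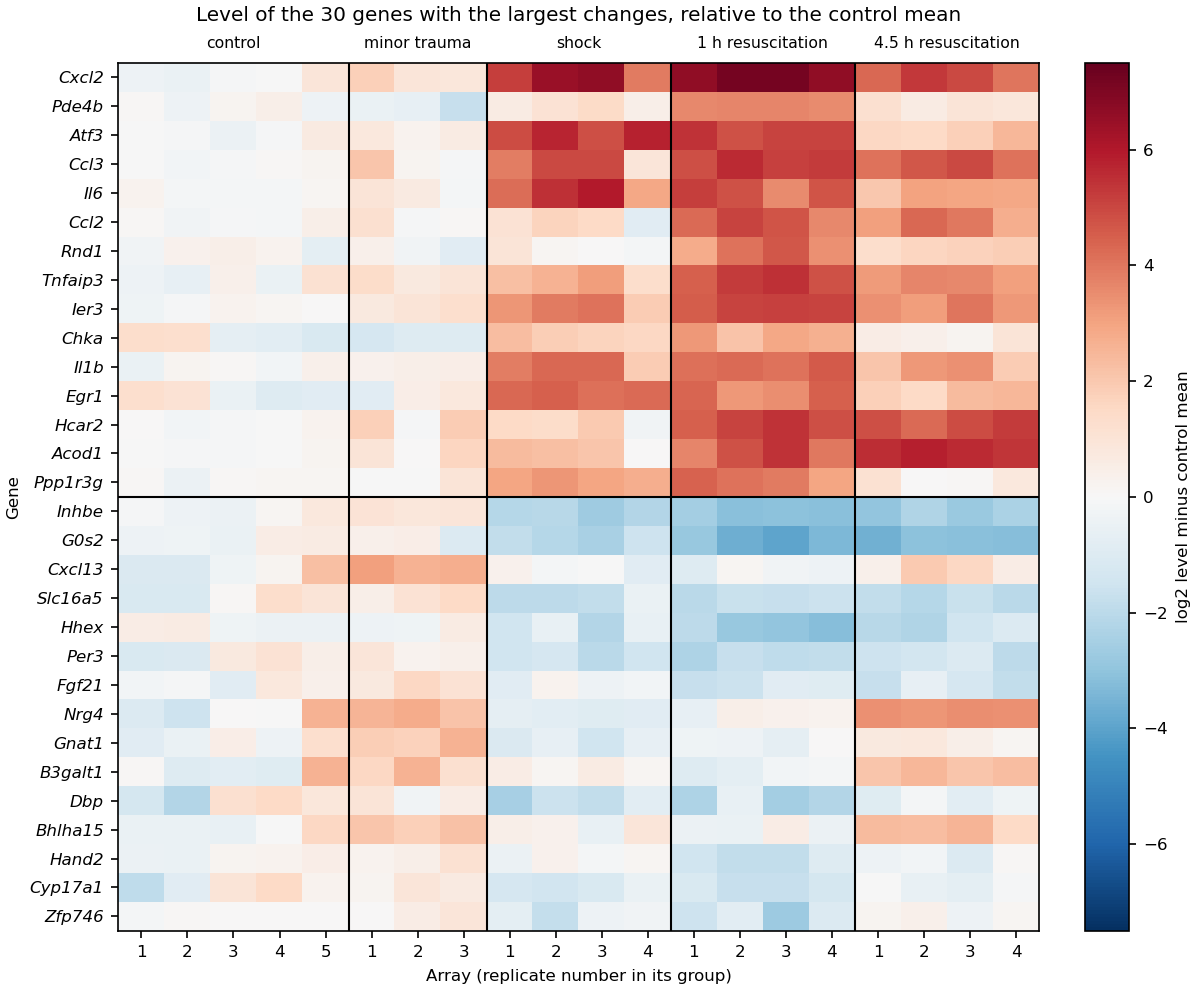
Log2 level of the 15 genes with the largest increases and the 15 with the largest decreases, minus the mean of the 5 control arrays, for each of the 20 arrays (columns, by group) and gene (rows). Red is above and blue below control. The upper rows are red on the 1 h arrays and, for some genes such as Atf3 and Cxcl2, on the shock arrays. Cxcl13, Nrg4, Gnat1, B3galt1 and Bhlha15 in the lower rows are red on the minor trauma arrays and on control array 5.

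Marker genes of neutrophils, which are rich in S100a8 and S100a9, moved with the inflammatory genes. Of 10 tested, 9 were higher at 1 h and none lower, with a median log2 change of 2.01, and 8 were higher without minor trauma array 3. Their summed signal was 343 to 635 on the minor trauma arrays, 3040 to 4800 on the 1 h arrays, 569 to 2570 on the shock arrays and 125 to 454 on the control arrays. All 10 were above the array median on every 1 h array and 5 on every minor trauma array. None was above it on every control array. Of 13 matched markers 10 were tested, since a gene was kept if above the array median on 3 or more arrays of any group. Markers could thus be kept through the groups where they are high, so these counts are partly set by the filter. S100a9 was 7.62, 7.24 and 6.06 after minor trauma and 10.17, 10.82, 10.77 and 10.24 at 1 h, 11.5-fold higher (log2 3.53 ± 0.58 (SE), adjusted p = 4.14e-04). Clec4e, a receptor for dead cells and mycobacteria on myeloid cells, rose at least 8.26-fold, and the granule protease Mmp8 rose 4.34-fold. Ngp, a neutrophil granule protein, was 4.95, 4.46 and 4.86 against 6.56, 6.51, 7.09 and 6.45. Mmp8, Ngp and Clec4e were also higher at 1 h than at the end of shock, by 1.46 ± 0.23 (SE), 1.50 ± 0.18 (SE) and 1.90 ± 0.40 (SE). In whole liver, more cells of a type and more RNA per cell cannot be told apart. The part of these cells in the rise of chemokines and cytokines was not tested.

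Other cell types changed less. Of 8 monocyte markers, 1 was called, the shared gene Cd14, and their summed signal was 608 to 671 on the minor trauma arrays and 1200 to 1610 on the 1 h arrays. Their median log2 change was -0.05, level with that over all genes. Cd14 itself rose from a mean of 6.909 to 9.682, so the higher sum does not describe the 8 markers as a set. Of 12 markers of Kupffer cells, the resident macrophages, 3 were lower and none higher, with summed signals of 4560 to 6440 and 3530 to 4390. The scavenger receptor Marco was 8.13, 7.22 and 7.75 after minor trauma and 5.67, 6.88, 6.13 and 5.63 at 1 h, 3.09-fold lower, and the control arrays were 5.49, 5.62, 6.77, 6.51 and 7.10. The other two calls, Cd163 and Cd5l, ended without minor trauma array 3 (adjusted p = 0.0747 and 0.309), and the Kupffer count was likewise 1 without 1 h array 1. Of 12 sinusoidal endothelial markers 1 was called and of 12 stellate cell and fibroblast markers 3, all higher. These counts fell to 0 and 1 without minor trauma array 3 or 1 h array 1, and the endothelial call was also lost without 1 h array 2 or 3. None of 8 T, B and NK cell markers and none of 12 hepatocyte markers was called by limma.

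Several genes of the 15 largest increases act in metabolism and signalling. Ppp1r3g, a subunit that directs protein phosphatase 1 to glycogen, was 3.83, 3.87 and 4.84 after minor trauma and 8.30, 7.94, 7.79 and 6.83 at 1 h, 11.6-fold higher (log2 3.54 ± 0.32 (SE), adjusted p = 4.77e-07). Chka, the choline kinase that starts phosphatidylcholine synthesis, was 5.51, 5.80 and 5.84 against 10.05, 8.94, 9.71 and 9.48, 14.2-fold higher. Among 18 genes of gluconeogenesis and the cAMP response, which share Pde4b, 5 were higher and 2 lower. Ppargc1a, the coactivator that drives gluconeogenesis in fasting, was 5.46, 5.33 and 5.14 against 7.21, 7.60, 7.53 and 6.98, 4.06-fold higher. Its control level was 6.33 ± 0.56 (SD, n = 5). The count of higher genes fell to 3 without 1 h array 4 and to 2 with no normalization, and that of lower genes to 1 without minor trauma array 3 and to 0 without 1 h array 1, 2 or 3. Insig1, which restrains cholesterol synthesis, was 3.12-fold higher and Srebf1, the master factor of fatty acid synthesis, 2.62-fold. In their lists, 4 of 18 cholesterol genes and 3 of 20 fatty acid synthesis genes were called, all higher, and the cholesterol count fell to 1 without minor trauma array 3 or 1 h array 4 and to 2 without any of 9 other arrays. The fatty acid count was 0 with no normalization.

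Stress responses moved in part of their members. Of 15 p53 targets 6 were higher and 1 lower, the latter lost without minor trauma array 3. Trp53inp1, a p53-induced nuclear protein, was 9.0, 10.50 and 8.29 against 11.38, 11.61, 11.24 and 11.40, 4.43-fold higher, with a log2 change of 2.76 against 2.15 when minor trauma array 2, its highest, was left out. Gadd45a, a growth arrest gene, was 3.95-fold higher. Of 25 genes that hypoxia induces 6 were higher and none lower, among them Kdm3a, a histone demethylase, at 2.55-fold, and the hexokinase Hk2 at 2.15-fold. Adm, the vasodilator adrenomedullin, rose 2.6-fold and was above shock by 1.07 ± 0.26 (SE). Its log2 rise over minor trauma was 2.06 without shock array 2, where another probe set was the brightest. The hypoxia count fell to 3 without minor trauma array 2 and to 2 with no normalization. Of 23 heat shock proteins and co-chaperones 5 were higher and 1 lower, and the higher count was 2 without minor trauma array 3 and 3 without 1 h array 3. The inducible chaperone Hspa1a was 4.86, 5.10 and 5.92 against 6.70, 7.22, 7.55 and 7.64, 3.95-fold higher. Hspa1a and its near-copy Hspa1b may share signal, so neither value is certain to be of 1 gene. Gclc, the rate-limiting enzyme of glutathione synthesis, was 9.17, 8.66 and 9.09 against 11.07, 10.71, 10.66 and 10.71, and the control arrays were 10.98, 11.24, 10.02, 10.54 and 8.91, with array 5 the lowest. It was the single call among 15 NRF2 targets with all arrays. The higher count was 2 without any of minor trauma arrays 1, 2 and 3, 1 h array 1 or shock array 4, and 1 gene was lower without control array 5 or minor trauma array 1. Ppp1r15a, which reverses the block of translation in the integrated stress response, was 3.35-fold higher.

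The largest decrease was in Inhbe, which encodes a subunit of activin E secreted by hepatocytes. Its level was 8.32, 8.11 and 8.18 after minor trauma and 4.74, 4.13, 4.22 and 4.16 at 1 h, 14.8-fold lower (log2 -3.89 ± 0.25 (SE), adjusted p = 3.34e-09). The control level was 7.29 ± 0.51 (SD, n = 5), between the 2 groups. The 15 genes with the largest decreases were 4.03-fold to 14.8-fold lower, or lower by a bound where stated, and 14 of the calls held whichever array was left out. G0s2, an inhibitor of triglyceride lipase, was 9.76, 9.90 and 8.36 against 6.57, 5.73, 5.44 and 6.01, 10.6-fold lower, and lower than at the end of shock by -1.47 ± 0.32 (SE). Hhex, a homeobox factor of liver development, was 9.14, 9.18 and 10.12 against 7.55, 6.64, 6.56 and 6.34, 6.54-fold lower, and also below shock by -1.54 ± 0.37 (SE). Hand2, a factor of stellate cells and mesenchyme, fell 4.41-fold, from 6.10, 6.26 and 6.98 to 4.35, 4.01, 4.01 and 4.86, and was below shock by -1.50 ± 0.27 (SE), where it was 5.43, 6.16, 5.68 and 5.97. Fgf21, a fasting hormone of the liver, was at least 2.54-fold lower. Slc16a5, a monocarboxylate transporter, was at least 2.43-fold lower and Cyp17a1, an enzyme of steroid synthesis, 4.23-fold lower. Zfp746, a zinc finger repressor, was 4.03-fold lower.

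Some of these decreases sit beside minor trauma arrays that differ from control. Nrg4, an EGF family ligand, was 8.78, 9.01 and 8.33 after minor trauma, 5.58, 6.67, 6.52 and 6.5 at 1 h and 5.19, 4.68, 6.25, 6.18 and 8.81 on the control arrays. The first 4 control arrays lay within or below the range of the 1 h arrays and control array 5 lay with minor trauma. Gnat1, a G protein subunit known from rod photoreceptors, was 7.43, 7.31 and 8.19 against 5.28, 5.24, 4.91 and 5.65, and the control arrays were 4.74, 5.09, 6.09, 5.21 and 6.87, with array 5 the highest. Bhlha15, a factor of secretory cells, was at least 2.23-fold lower, and B3galt1, a galactosyltransferase, 4.99-fold. Of the 157 named genes called against minor trauma, 33 also differed between minor trauma and control. Over all genes 441 (3.44%) did, but the 157 were chosen by a contrast with the same minor trauma arrays, so the count is not to be read against that share. That count was 0 without minor trauma array 3, 5, 6 and 8 without control arrays 1, 2 and 3 in turn, and 68 without control array 5. Against the control arrays, which include array 5, the levels at 1 h and in control were 10.89 ± 0.28 (SD, n = 4) and 3.98 ± 0.56 (SD, n = 5) for Cxcl2, 7.93 ± 0.72 (SD, n = 4) and 3.37 ± 0.19 (SD, n = 5) for Il6, and 4.32 ± 0.29 (SD, n = 4) and 7.29 ± 0.51 (SD, n = 5) for Inhbe.

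**Figure D4:**
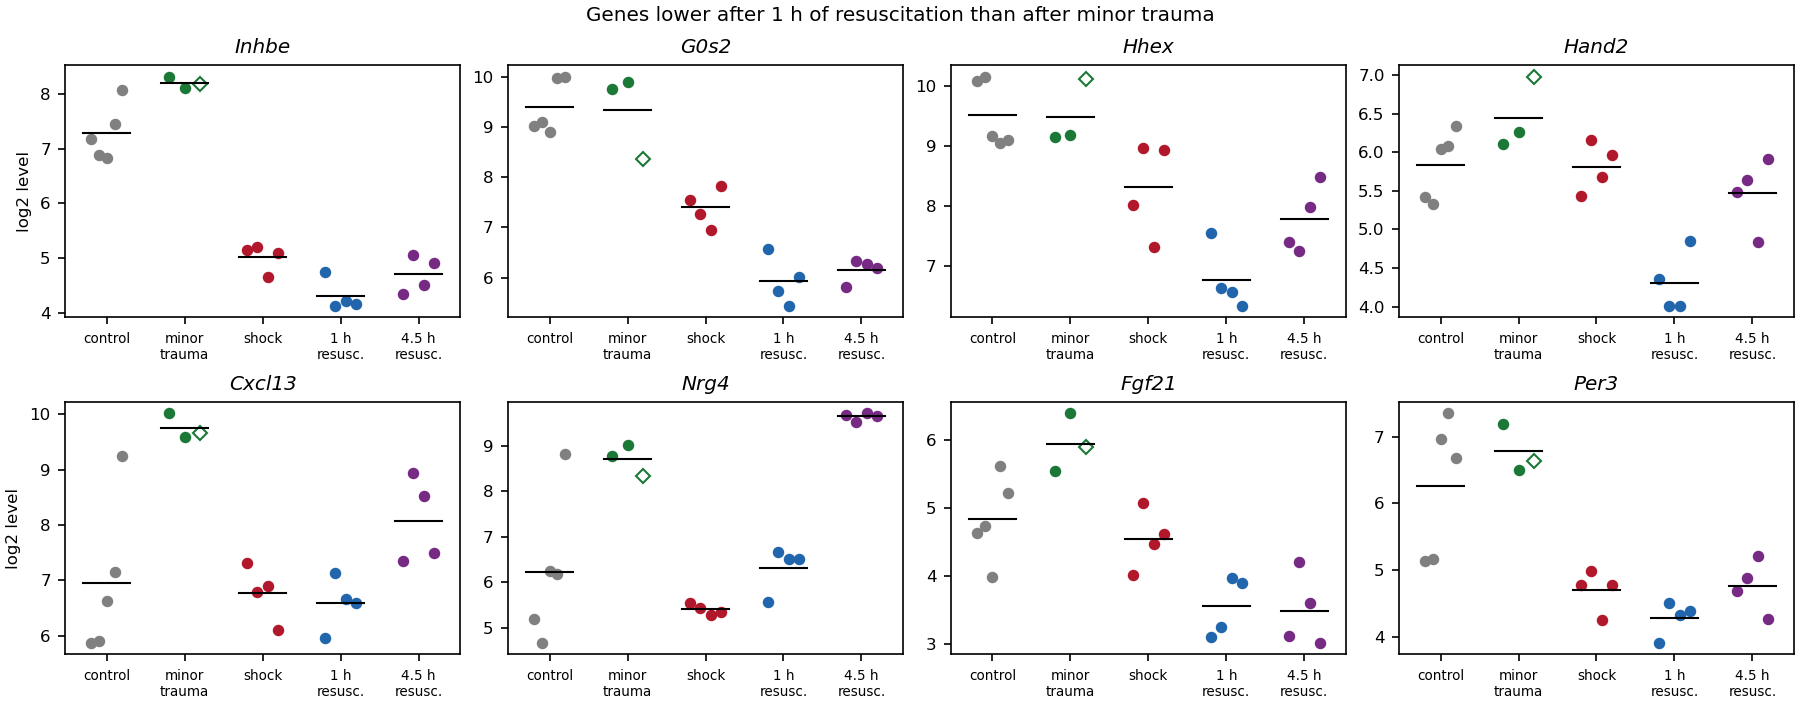
Log2 level (vertical) of 8 genes called lower at 1 h of resuscitation, on each array of the 5 groups (horizontal). Each point is an array, the open diamond is minor trauma array 3 and lines are group means. In every panel the 4 arrays of 1 h lie below the 3 of minor trauma. For Cxcl13 and Nrg4 most control arrays lie with the 1 h arrays.

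Clock genes were called in both directions, 5 of 20 higher and 4 lower. Clock and Rora, activators of the daily cycle, were 2.76-fold and 2.7-fold higher, and Arntl, the partner of Clock, was 3.87, 4.57 and 5.15 against 6.75, 6.07, 6.95 and 6.79. The call for Arntl ended without minor trauma array 1. Per3, a repressor of the cycle, was 7.19, 6.51 and 6.64 after minor trauma and 3.92, 4.51, 4.34 and 4.39 at 1 h, at least 4.52-fold lower. For Per3 another probe set was the brightest when any of 8 arrays was left out, and its log2 change was then between -1.34 and -1.82 instead of -2.49. Dbp, an output factor of the clock, was 9.59, 8.40 and 9.18 against 6.33, 8.12, 6.10 and 6.43, and its call ended without any 1 of 5 arrays (minor trauma 1 and 3, and 1 h arrays 1, 3 and 4; adjusted p = 0.0904 without minor trauma array 3). The control arrays were split in Dbp, at 7.32, 6.44, 9.83, 10.14 and 9.51. The count of lower clock genes was 1 without minor trauma array 3 or 1 h array 3 and 2 without minor trauma array 1. That of higher ones was 3 without minor trauma array 1 or 1 h array 1. The time of day at sampling is not in the labels and its part was not tested.

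Of 23 PPARalpha targets and fatty acid oxidation genes 6 were lower and 2 higher, a share of 26.1% lower beside 7.39% over all genes, with a median log2 change of -0.58. Fgf21, given above, was the largest of the lower calls. Cpt1a, which admits fatty acids to mitochondria, was 10.60 ± 0.36 (SD, n = 3) after minor trauma and 9.67 ± 0.18 (SD, n = 4) at 1 h, 1.9-fold lower, and Cpt2, its partner in the inner membrane, 1.68-fold lower. The control means of Cpt1a and Cpt2, 10.099 and 9.885, lay between those of minor trauma and 1 h. Without minor trauma array 3 the count of lower genes was 4. The count of 2 higher genes fell to 1 or 0 whichever array was left out, except for minor trauma array 2. Nr1h4, the bile acid receptor FXR, was 10.36, 10.14 and 10.26 against 9.09, 9.10, 9.21 and 9.14, 2.17-fold lower (log2 -1.12 ± 0.17 (SE), adjusted p = 2.85e-04). Of 26 drug-metabolising enzymes and their receptors 4 were lower and none higher, among them the sulfotransferase Sult1d1 at 2.34-fold and the glutathione transferase Gstt3 at 2.48-fold. At 1 h Gstt3, Cyp3a13 and Fmo5 stood at 8.465, 10.023 and 11.265, near their control means of 8.548, 10.061 and 11.305. Their minor trauma means were 9.775, 10.987 and 11.893. Sult1d1 was 11.341 after minor trauma, 10.117 at 1 h and 10.498 in control. Of 21 urea cycle and amino acid genes 3 were lower and 1 higher, and no lower call was left without minor trauma array 3. The higher gene, Ddc, which makes dopamine and serotonin by decarboxylation, was 8.00, 7.10 and 7.83 against 10.12, 9.46, 10.23 and 9.95, and 10.13, 10.53, 10.28, 8.74 and 7.86 on the control arrays, of which array 5 was the lowest.

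Of 28 genes for building ribosomes in the nucleolus 6 were lower and none higher, with a median log2 change of -0.45. The rRNA methyltransferase Nop2 was 7.57, 7.18 and 7.47 against 5.91, 6.41, 6.66 and 6.40, 2.08-fold lower, and Grwd1, a ribosome assembly chaperone, 1.91-fold lower. The count depended on the scaling and on single arrays: it was 13 after median centring and 3 without minor trauma array 3 or 1 h array 1. For the respiratory chain 1 of 25 genes was called, lower, and it was lost without minor trauma array 3 and without any 1 of the 4 arrays of 1 h. Without minor trauma array 1 it was 3 higher and 2 lower, and without minor trauma array 2 it was 3 in each direction. Of 23 endoplasmic reticulum chaperones and genes of the unfolded protein response 2 were lower and none higher, a share of 8.7% beside 7.39% over all genes. They were Dnajb9, a co-chaperone induced by that response, 2.33-fold lower, and Creb3l3, a membrane-bound factor of the liver, 1.79-fold lower. The count was 4 after median centring and 3 with no normalization.

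Growth factors, vessel genes and junction genes had calls in each direction. The shares called higher were 26.1%, 19% and 33.3%, beside 4.77% over all genes. Those called lower were 21.7%, 9.52% and 6.67%, beside 7.39%. The lower shares of vessel and junction genes were thus near that over all genes. Of 23 growth factor and regeneration genes 6 were higher and 5 lower, and the higher count was 3 without 1 h array 3 or 4. Fst, which encodes the activin antagonist follistatin, was 4.45, 4.43 and 4.87 after minor trauma and 7.26, 8.49, 8.67 and 7.16 at 1 h, 9.93-fold higher (log2 3.31 ± 0.52 (SE), adjusted p = 2.81e-04), and 2.52 ± 0.48 (SE) above shock. Hbegf, an EGF receptor ligand, was 4.12-fold higher. Among 21 vessel genes 4 were higher and 2 lower, and 1 was lower without minor trauma array 3 or 1 h array 2 or 3. The endothelial factor Sox7 was 2.52-fold higher, at 5.04, 5.15 and 5.36 against 6.79, 6.38, 6.56 and 6.35, while its relative Sox18 was 3.55-fold lower, at 5.65, 5.84 and 6.42 against 4.21, 4.37, 3.09 and 4.89. Plaur, the urokinase receptor, and Thbs1, which encodes thrombospondin-1, were the 2 calls among 23 coagulation and fibrinolysis genes, 2.65-fold and 2.61-fold higher, and both were above shock. That list's share was 8.7% beside 4.77% over all genes. Of 15 tight junction and gap junction genes 5 were higher and 1 lower. Gja1, which encodes connexin 43, was 2.84-fold higher. Cldn1, a tight junction claudin, was 5.79, 5.54 and 5.72 against 8.64, 8.25, 8.00 and 8.12, and the control arrays were 9.09, 9.05, 7.42, 7.33 and 6.27, all above minor trauma. The higher junction count was 3 without minor trauma array 1 or 1 h array 3 or 4, and 2 with no normalization. The lower call was lost without minor trauma array 1 or 3 or 1 h array 1, 2 or 3.

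Genes induced by interferon were called higher in 5 of 27 and lower in none. Ifit2, an antiviral protein, was 4.89, 4.61 and 4.20 after minor trauma and 6.36, 6.10, 6.83 and 5.84 at 1 h, 3.28-fold higher, and stood at 10.67 ± 0.67 (SD, n = 4) at 4.5 h. Oasl1 and Rsad2, antiviral proteins too, were 2.1-fold and 2.18-fold higher. The interferon count was 9 and 8 without minor trauma arrays 1 and 2, and 2 with no normalization. Of 22 glucocorticoid-inducible genes 7 were higher and 1 lower, but the higher count was 3 without minor trauma array 1, 4 without 1 h array 3, 2 without 1 h array 4 and 1 with no normalization. Cdkn1a, the cell cycle inhibitor p21 and a p53 target as well, was 5.73, 8.60 and 9.18 after minor trauma and 9.69, 9.62, 9.92 and 10.07 at 1 h. Its low first minor trauma array set the size of the change: 1.99 ± 0.56 (SE) with all arrays, 0.94 and not called without minor trauma array 1, and 2.65 without minor trauma array 3. In the remaining lists, 2 of 8 metallothioneins and zinc transporters were higher, 3 of 14 glycolysis and glycogen genes higher and 2 lower, 3 of 22 bile acid genes higher and 1 lower, 2 of 19 ATF4 targets higher and 3 lower, and 1 of 4 cholangiocyte markers higher. Each of these lists had a count that moved by over 1.5 times when single arrays were left out, for ATF4 targets to 1 higher and 1 lower without minor trauma array 3. With no normalization the higher count was 0 for metallothioneins, bile acid genes, stellate cell and sinusoidal markers, 1 for heat shock proteins and 2 for growth factors, and after median centring it was 1 for fatty acid synthesis and stellate cell markers and 3 for glucocorticoid-inducible genes. The red cell gene Alas2 was not called.

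**Figure D5:**
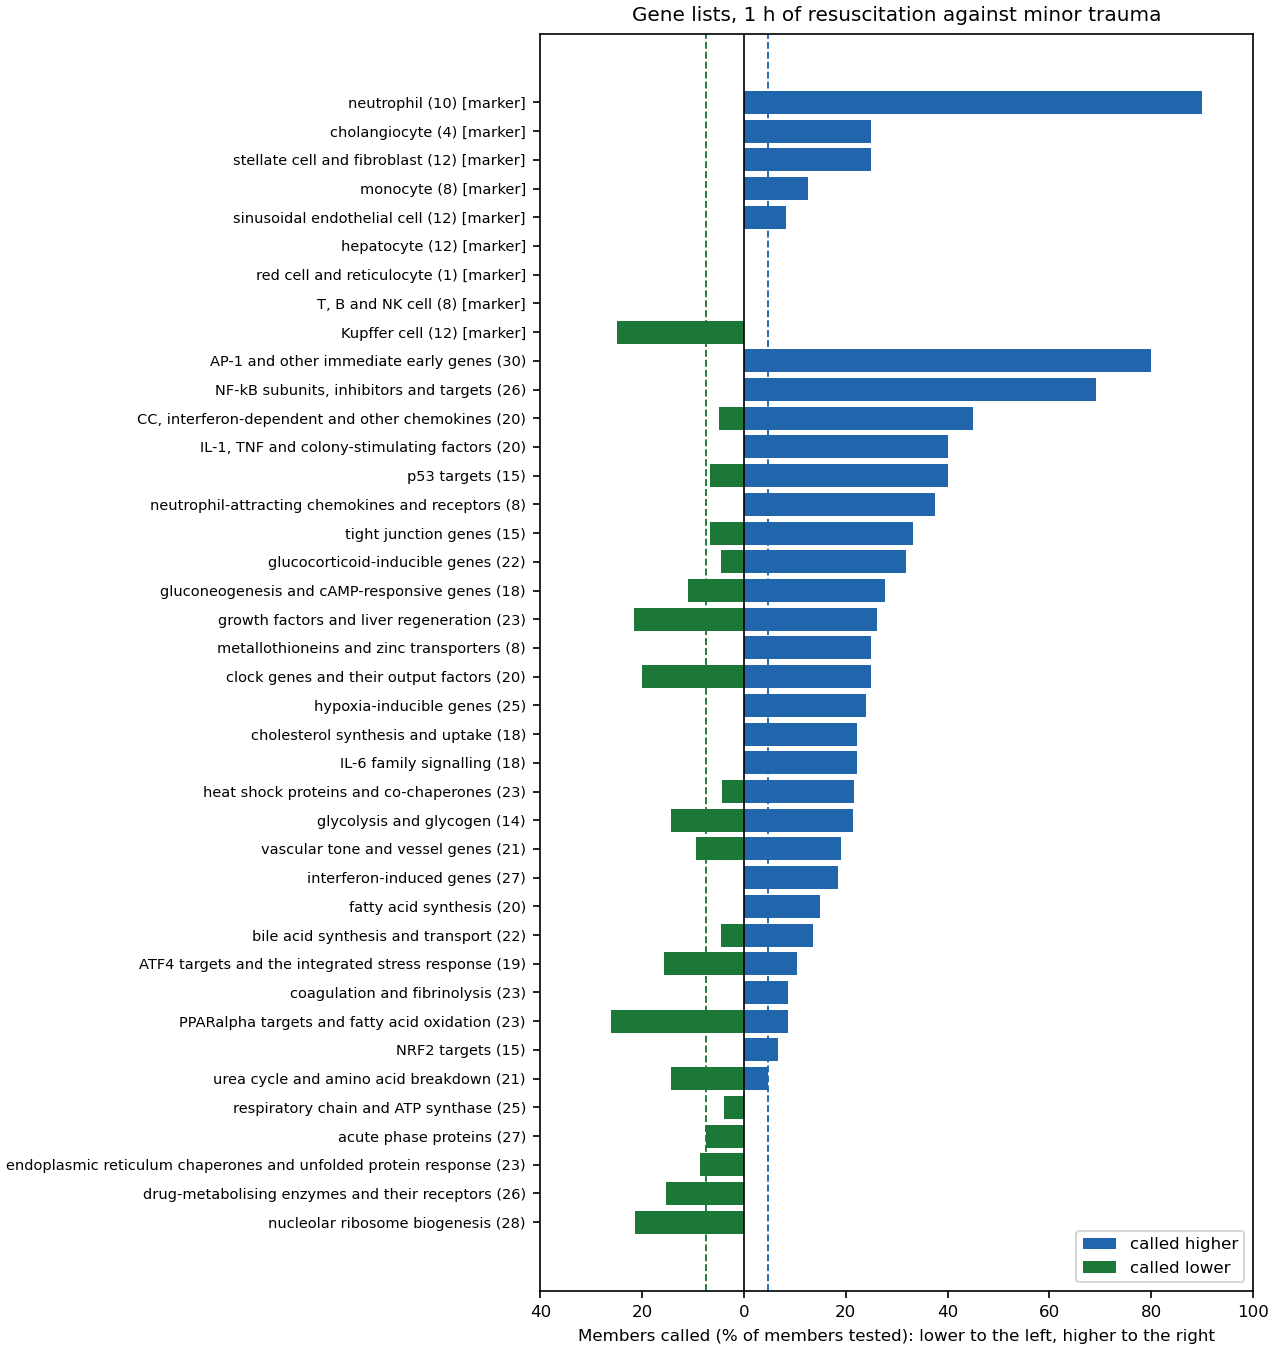
Share of the tested members of each gene list that was called higher (blue, to the right) or lower (green, to the left) at 1 h of resuscitation against minor trauma, in percent, with the number tested in parentheses and cell type marker lists tagged. Dashed lines mark the shares over all genes, 4.77% higher and 7.39% lower. The neutrophil, immediate early and NF-kB lists have the longest blue bars at 90%, 80% and 69.2%.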

How the data were processed

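The deposited table holds linear intensity signals, 1 per probe set and array, made by the authors with MAS5, as the submitters' processing notes record without a version. The table was used as deposited, since the arrays are not scaled to each other. To each signal 6 was added before taking log2, and the 20 arrays were quantile normalized. Of 45101 probe sets, 34945 carry a single gene name in the platform annotation (932 carry several, 9160 none, 64 are controls). The brightest kept probe set stood for its gene, where kept means above its array's median on 3 or more arrays, which left 27274 probe sets and 12832 genes and dropped 5361 genes. A linear model of the 5 groups was fitted to all arrays with limma 3.58.1 (R 4.3.3, data.table version 1.17.8; intensity trend), with Benjamini-Hochberg adjustment over all genes. In data simulated for this comparison over 12832 genes, 59% of 2-fold and 96% of 4-fold changes were recovered, and 8.28% of calls were false. The simulation changed 200 genes and drew normal noise with a single spread per gene. It held no outlying array such as minor trauma array 3, so these rates may not hold for the real arrays. Bounds use, the lower group's values, raised to the array's median where they fall under it. Folds of weak genes depend on the 6 that was added: for 26 of the named genes called, folds with 1 and with 16 added differed by over 1.5 times, for example 42.7 and 12.5 for Ccl3.

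The comparison, its gene lists (31 pathways and 9 cell types, from general knowledge) and tests were chosen with earlier results of these data known. Named genes were the 15 largest increases and decreases called, without clone or locus names, and up to 6 called members of each list, or 2 where none was called, 162 in all. Other probe sets of the named genes never gave a call in the opposite direction. Lists share members. Alternatives were other scalings, additions, filters and probe set rules, the 7 arrays alone, array weights, blocks, and leaving out each array. The dap poly-A spike was found on minor trauma arrays 1 and 3 and on 1 h arrays 2 and 3, and that split was used as a block. Same-numbered arrays did not deviate together (r = -0.03, 0.12 and -0.04). No 2 arrays were identical. The number of arrays limits the precision. Figures were drawn with matplotlib.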

Additional observations from a re-analysis of the deposited data

Results flagged for a closer look

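Each of the 13 values that follow lay apart from the other 3 arrays of the 1 h group by more than Dixon's criterion for 4 samples (0.829), which chance exceeds in about 1 of 20 groups. With 162 named genes, several such values would arise by chance, so none is marked as an outlier by this alone. The first 1 h array was low in Ier3 (9.44), Nrg4 (5.58), Hspa1b (9.20), Cldn14 (7.67) and Cd163 (6.84) and high in Inhbe (4.74) and Gclc (11.07). The second was high in Dbp (8.12) and Cyp3a13 (10.45), the third high in Bhlha15 (4.30) and Ngp (7.09), and the fourth low in Ndrg1 (7.42) and high in Gjb2 (11.66). Gjb2 encodes connexin 26, Cyp3a13 a cytochrome P450, Cldn14 a claudin and Ndrg1 a hypoxia-induced gene.

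For 27 genes the change against minor trauma differed between 1 h of resuscitation and the end of shock by limma's test of the difference, given here as log2 values. The difference was positive for Hcar2 (3.80), Ccl2 (3.57), Rnd1 (3.50), Sele (2.99), Acod1 (2.75), Pde4b (2.71), Icam1 (2.68), Tnfaip3 (2.66) and Fst (2.52). It was also positive for Irf1 (2.39), Cxcl10 (2.29), Clec4e (1.90), Ier3 (1.64), Nfkbiz (1.51), Ngp (1.50), Mmp8 (1.46), Sox9 (1.22), Plaur (1.17), Thbs1 (1.14), Adm (1.07) and Gja1 (1.03). It was negative for Hhex (-1.54), Hand2 (-1.50), G0s2 (-1.47), Dusp1 (-1.21), the endothelial factor Sox17 (-1.19) and the glycogen-targeting subunit Ppp1r3b (-0.94). The adjusted p was lowest for Irf1 (1.68e-07) and highest for Adm (0.0495). Sox9 was the cholangiocyte marker called against minor trauma. That call ended without 1 h array 1 or 4.5 h array 3, where another probe set was the brightest.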

How the results depend on the processing

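The count of called genes, 1560, was 661 with no normalization, 953 with the 7 arrays normalized alone and 898 with them fitted alone. Within the arrays with the dap spike (2 against 2) it was 479, and within those without it, where the lone minor trauma array is assumed to vary like the others, 36, of which 35 changed at least 2-fold. It ranged from 1035, without minor trauma array 3, to 1804 when single arrays were left out, and the count with at least a 2-fold change from 426 to 619. Of the named genes called, 27 differed between 1 h and shock, 15 and 1 within these spike sets, and 18 to 29 over the left-out arrays. The 33 that differed between minor trauma and control were 20 with no filter, 17 with no intensity trend, 0 in the set without the spike and 0 to 68 over the left-out arrays. With the replicate number as a block 1696 genes were called and this last count was 71, but the numbers did not pair the arrays.

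Of the 157 named calls, 99 held in all 20 fits that left out an array and 114 without minor trauma array 3. In no setting did a named call turn its sign. Alas2, not called at 0.10, was -0.22 with no normalization, -0.066 after median centring, -0.22 in the spiked set and -0.082 without minor trauma array 2 and 0.35 without array 3, the ends of its range over the left-out arrays. Depth limits weak genes: 90 of the called genes lay at or below the array median throughout the lower group.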

Other observations

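A few secretory pathway genes outside the lists were picked out after their values were seen, so their values are descriptive. Ficd, which modifies the chaperone BiP, was 6.63, 6.87 and 7.37 after minor trauma and 5.08, 5.41, 5.50 and 5.43 at 1 h, with a control level of 5.89 ± 0.51 (SD, n = 5). Txndc11, a thioredoxin domain protein of the endoplasmic reticulum, was 7.43, 7.28 and 7.47 against 5.87, 5.70, 5.80 and 6.03, and Alg2, a mannosyltransferase of N-glycan assembly, 8.30, 7.98 and 8.31 against 6.62, 6.43, 6.86 and 6.88. In all of these the minor trauma arrays lay above both the 1 h arrays and the control mean.

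Cyp2b10, a cytochrome P450 induced by phenobarbital, and Lcn2, an acute phase protein, were likewise picked out after their values were seen. Cyp2b10 was 11.45, 12.26 and 12.36 after minor trauma, 8.92, 10.01, 9.17 and 10.01 at 1 h and 5.91, 4.72, 3.82, 6.14 and 11.83 on the control arrays. The groups did not overlap, but the gene was not called (log2 -2.49 ± 1.09 (SE), adjusted p = 0.147), and control array 5 stood far above the other controls. Lcn2 was 11.37, 12.62 and 12.44 after minor trauma, 9.35, 11.01, 11.23 and 11.07 at 1 h and 6.38, 6.44, 7.67, 6.15 and 11.78 on the control arrays, with the same stray control array.

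Of 253 genes with zinc finger symbols beginning Zfp, a family noticed in the list of decreases, 33 (13%) were called lower and 7 (2.77%) higher, beside 7.39% and 4.77% over all genes, with a median log2 change of -0.08 beside -0.05 for all genes. With no normalization the counts were 15 and 1.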
